A study of Homo sapiens with 12 samples.

Results

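Quinacrine (QC) is an acridine antimalarial drug that inserts between DNA base pairs and collects in acidic compartments such as lysosomes. The QC response described here is that of a single isogenic pair of cell lines, the cisplatin-sensitive OV2008 and its cisplatin-resistant partner C13, which the labels call OV2008_C13. Its members are the 4 libraries of these lines, out of 12 in the whole series. For each line a library from vehicle-treated cells was set against a library from cells given 8 µM QC for 6 h, and genes were then sorted into those that changed alike in both lines and those that changed in 1 line alone. The other 8 libraries came from HeyA8 with HeyA8-MDR and from SKOV3 with SKOV3-TR, treated the same way, and served for comparison. By the labels HeyA8 and SKOV3 are sensitive lines, and HeyA8-MDR and SKOV3-TR are resistant ones. All 12 libraries were made from polyadenylated RNA of established lines that the labels describe as ovarian cancer, grown to 70% confluency, and none of the groups carried a transgene or a deletion by the labels. There was 1 library for each line and treatment and no mention of separate cultures, so each p-value measures the spread between cell lines and not between repeats of 1 line.

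Cells answer DNA-binding drugs through a few well-known programs. The transcription factor p53 raises genes that stop the cell cycle (CDKN1A), remove p53 itself (MDM2) or start cell death (BBC3). Stress kinases and serum response factor raise immediate early genes such as FOS, NF-kB raises cytokines and its own inhibitors, and ATF4 raises amino acid transporters. Replication-dependent histone genes have no introns, and most of their transcripts end in a stem-loop in place of a poly(A) tail, so only their polyadenylated forms are well sampled in libraries of this kind.

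Total counts were 18739626 for OV2008 vehicle, 22974846 for OV2008 QC, 29884628 for C13 vehicle and 23699105 for C13 QC, within the series' range of 17782556 to 30585059. Squamous epithelium markers summed to 17440, 13168, 5839 and 4733 CPM (counts scaled to the library total) in these 4 libraries and to between 34.1 and 163 CPM in the other 8. KRT5 had 200188, 202293, 91908 and 67677 counts, and TP63 had 5629, 7463, 3244 and 3662. Ovarian and müllerian markers summed to between 53.1 and 83.6 CPM in the pair and to between 268 and 611 CPM in the other lines. PAX8 had 135, 267, 590 and 657 counts in the pair, while SOX17, CDH6 and EMX2 had between 0 and 4 counts. Other markers of this list were present, with 625, 687, 747 and 630 counts of ESR1, 29, 34, 509 and 364 of MSLN, and 62, 99, 508 and 437 of WFDC2. Squamous markers thus stood above, and the summed ovarian markers below, their levels in the other lines, which goes in part against the ovarian label, and the lines are named here only as OV2008 and C13. Blood cell markers stayed at or below 0.491 CPM in all 4 libraries, and stroma markers lay between 12.2 and 16.6 CPM. The libraries kept their line under QC. Over genes that were at least 8-fold apart between the vehicle libraries, the OV2008 QC library had moved a median of 12.2% of the way toward C13 for the 95 genes higher in C13 and 8.09% for the 102 genes lower there, and the C13 QC library stood at 97.5% and 100%. The HeyA8 QC library had moved 65.9% and 23.7% of the way toward HeyA8-MDR, so it stands apart from the other QC libraries of sensitive lines. The number of calls of each test is therefore also given without HeyA8.

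The sequences immediately before the starts of 3 histone H2B genes are shown because these genes rose together in both lines. They are the 150 bases before the first listed start of each gene in RefSeq (GRCh38.p14), read 5′ to 3′ on the gene's own strand, with capitals marking CCAAT boxes (CCAAT or its reverse ATTGG), the octamer ATTTGCAT and the TATA box TATAAA. The windows are chr6:26157971-26158120 on the plus strand for H2BC5, chr6:27132796-27132945 on the minus strand for H2BC11 and chr1:149886683-149886832 on the minus strand for H2BC21.
H2BC5: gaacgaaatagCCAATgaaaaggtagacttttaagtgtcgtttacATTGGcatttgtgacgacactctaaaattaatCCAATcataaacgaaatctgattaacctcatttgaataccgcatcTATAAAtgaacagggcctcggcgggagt
H2BC11: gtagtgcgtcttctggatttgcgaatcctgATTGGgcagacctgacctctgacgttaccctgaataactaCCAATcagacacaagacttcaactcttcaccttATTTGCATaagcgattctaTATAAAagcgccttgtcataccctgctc
H2BC21: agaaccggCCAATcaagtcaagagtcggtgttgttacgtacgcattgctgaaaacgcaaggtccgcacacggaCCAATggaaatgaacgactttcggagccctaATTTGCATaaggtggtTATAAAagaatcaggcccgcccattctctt
In each of them a TATA box lay 28 to 30 bases before the start and a CCAAT box lay 73 to 80 bases before it. In H2BC11 and H2BC21 the octamer lay 47 and 46 bases before the start, and these letters were not in the H2BC5 window shown.

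To ask which genes QC changed in the pair, a QC effect shared by OV2008 and C13 was tested with edgeR's quasi-likelihood test over all 12 libraries with a term for each line. The test is of the mean effect over both lines, so a call does not show that each line changed. ACTA2, LTBP2 and the p53 targets CDKN1A and MDM2 were among the genes that rose, and EDF1, C7orf50 and SLC19A1 among those that fell. Of 20403 genes tested, 363 rose (1.78%) and 281 fell (1.38%) at an adjusted p under 0.05, and 275 and 161 of these changed at least 2-fold. Scaled by library size in place of trimmed means, 541 of 698 called genes rose (77.5%, against 56.4%), and 49.4% of the 1452 called by DESeq2 did. The balance of directions thus depends on the scaling and the method, and it also moved when OV2008 or C13 was left out. Under library size scaling neither line's median change moved by more than 0.111 on the log2 scale. Scaled to RPLP0, the reference gene of the study's PCR, the median gene stood 0.43 higher in OV2008 and 0.42 higher in C13, and all changes below are relative to the median gene. In bulk RNA of this kind, fewer cells with a transcript and less of it per cell cannot be told apart. The count leaned on OV2008: it was 22 without OV2008 and 157 without C13, where a single line is assumed to vary like the other pairs. It was 1899 without HeyA8, 2025 without HeyA8-MDR and 356 without SKOV3. Of 80 called genes that the text could name by rule, 7 were still called without OV2008, 30 without C13, 59 without SKOV3, 67 without SKOV3-TR and all 80 without HeyA8 and without HeyA8-MDR, and none changed direction.

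Seen line by line, without a test, OV2008 had the wider response. Among 11938 genes with at least 50 counts in the higher library of each line, 610 were at least 2-fold higher with QC in OV2008 (5.11%) and 541 were at least 2-fold lower (4.53%). In C13 the numbers were 440 (3.69%) and 132 (1.11%). A gene counted as changed alike where both lines passed 2-fold in the same direction, which held for 267 genes upward (2.24%) and 87 downward (0.729%). A gene counted as changed in 1 line alone where the other line stayed within 0.5 on the log2 scale. In OV2008 alone 135 genes were higher (1.13%) and 180 were lower (1.51%), and in C13 alone 70 were higher (0.586%) and 14 were lower (0.117%). Only RPLP0P9 and CAVIN2 passed 2-fold in opposite directions, both higher in C13 with QC (0.0168%). The log2 ratios of the 2 lines, which share no library, had a Pearson correlation of 0.69 and a Spearman correlation of 0.68 across 10140 genes, a description across genes that are not independent. The corresponding Pearson values were 0.39 between HeyA8 and HeyA8-MDR and 0.12 between SKOV3 and SKOV3-TR. Changes alike made up 2.97% of the genes counted in the OV2008 pair, 1.66% in the HeyA8 pair and 0.147% in the SKOV3 pair.

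**Figure D1:**
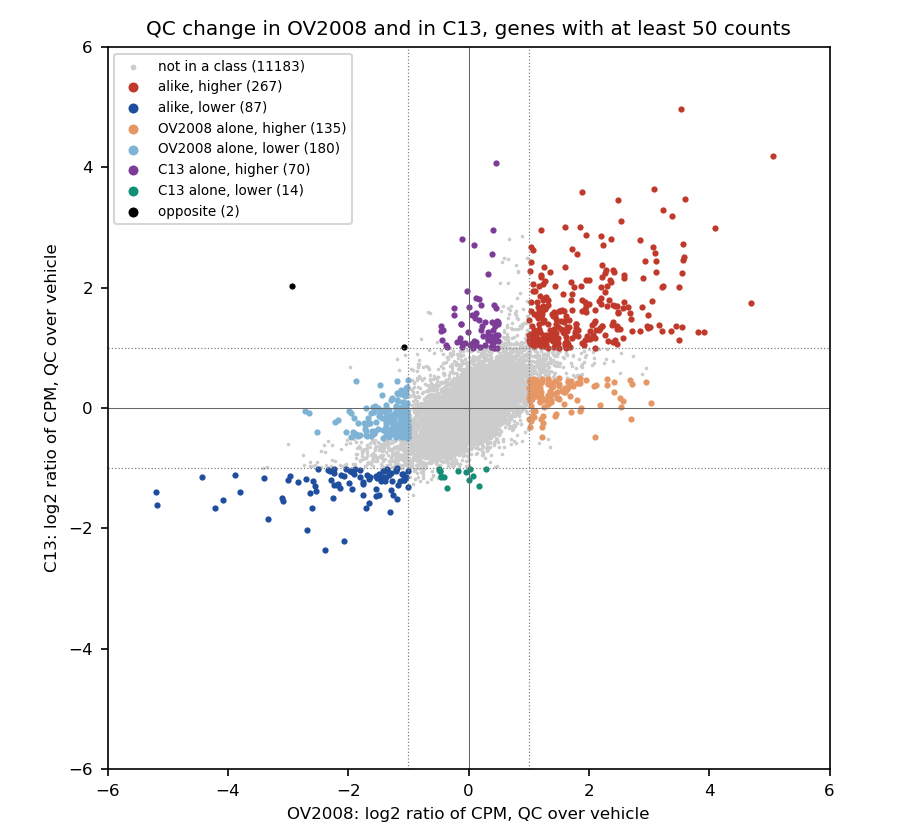
Log2 ratio of CPM, QC over vehicle, in OV2008 (horizontal) and in C13 (vertical), 1 point for each of the 11938 genes with at least 50 counts in the higher library of each line, coloured by class. The 267 genes changed alike upward fill the upper right corner and the 87 changed alike downward the lower left, with 315 genes changed in OV2008 alone along the horizontal axis and 84 changed in C13 alone along the vertical one, where DAPK1 is the highest.

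ACTA2 (ENSG00000107796.13), smooth muscle actin, had 12 counts with vehicle and 178 with QC in OV2008, and 64 and 535 in C13. Both QC libraries were far above both vehicle libraries, at 11.7-fold (95% interval 6.51 to 23.0) in OV2008 and 9.45-fold (7.28 to 12.4) in C13, where the intervals cover counting error only. Its shared log2 fold change was 3.33 ± 0.27 (SE) with the smallest adjusted p of all genes, 0.00179, and it was also called without OV2008 (0.0121) and without C13 (0.00472). LTBP2 (ENSG00000119681.12), a matrix protein of the latent TGF-beta binding protein family, went from 78 to 492 counts in OV2008 and from 108 to 476 in C13. The lines moved by the same amount, 2.29 on the log2 scale in each, and the shared change was 2.31 ± 0.21 (adjusted p = 0.00252, and 0.0434 and 0.00853 without OV2008 and without C13). ITGA2, a collagen receptor subunit, went from 1473 to 5838 and from 2037 to 4398 counts, a shared log2 fold change of 1.46 ± 0.17 (adjusted p = 0.00513). INHBA, a subunit of the TGF-beta family ligand activin, rose in both lines but unequally, from 16 to 577 counts in OV2008 (28.3-fold, 17.3 to 49.9) and from 71 to 215 in C13 (3.42-fold, 2.61 to 4.54). Its shared change was 3.04 ± 0.53 (adjusted p = 0.0179). Without OV2008 the adjusted p was 0.157 for ITGA2 and 0.206 for INHBA.

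Other genes changed alike upward started low with vehicle, at between 2 and 99 counts in the 4 given next. PDE6G, an inhibitory subunit of a cGMP phosphodiesterase, had 4 and 231 counts in OV2008 and 2 and 71 in C13, ratios of 45.4 (17.5 to 168) and 40.1 (10.7 to 338). MAF, a basic leucine zipper transcription factor, had 2 and 52 counts, then 14 and 160, ratios of 20.4 (5.38 to 173) and 12.9 (7.47 to 24.2). MUC2, a secreted mucin, had 4 and 118 counts in OV2008 and 33 and 247 in C13. RNASE7, an antimicrobial ribonuclease of skin, had 33 and 313 counts, then 99 and 619. In each of these genes both QC libraries stood above both vehicle libraries. All 4 rose, with adjusted p of 0.00903, 0.0311, 0.0263 and 0.0156. None of the 4 was called without OV2008, and PDE6G alone was called without C13 (0.0479). PURPL (ENSG00000250337.7), a long noncoding RNA, had 0 and 3 counts in OV2008, which is at the limit of 3 counts that a library with 0 allows, and 2 and 98 in C13, a ratio of 55.4 (14.9 to 464). It was called as shared (adjusted p = 0.00495) and without OV2008 (0.0107), but not without C13 (0.519), so its call rests on C13. The class has a threshold and its members were chosen on these same libraries, so their values are a description: the median log2 ratio of the 267 genes was 1.65 in OV2008 and 1.45 in C13. In libraries that did not choose them, 102 of the 267 were also at least 2-fold higher in HeyA8, 56 in HeyA8-MDR, 21 in SKOV3 and 29 in SKOV3-TR, with medians of 0.68, 0.39, 0.00 and 0.00. Over all genes with at least 50 counts in both HeyA8 lines, 626 of 11925 were that much higher in HeyA8 and 488 in HeyA8-MDR. The same counts were 154 of 12218 in SKOV3 and 90 in SKOV3-TR. The 267 genes did not have to reach this minimum in the other lines.

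The p53 target list followed the same direction in both lines. Of 45 targets, all tested, 10 rose (against 1.78% of all genes) and 0 fell, with median log2 ratios of 0.55 in OV2008 and 0.70 in C13, where the median of all tested genes was 0.00. The medians in HeyA8, HeyA8-MDR, SKOV3 and SKOV3-TR were 0.62, 0.00, 0.01 and -0.13. CDKN1A (ENSG00000124762.14), the cell cycle inhibitor p21, went from 1228 to 7686 counts in OV2008 and from 3760 to 10729 in C13, or from 68.9 to 339 CPM and from 126 to 405 CPM. OV2008 with QC thus passed the vehicle level of C13, and the shared log2 fold change was 1.99 ± 0.26 (adjusted p = 0.00598). MDM2 (ENSG00000135679.25), the ubiquitin ligase that degrades p53, went from 916 to 2830 counts and from 1054 to 4050, with the larger step in C13 (4.34-fold, 4.06 to 4.65) than in OV2008 (2.43-fold, 2.25 to 2.62) and a shared change of 1.70 ± 0.24 (adjusted p = 0.00812). The difference between the lines in MDM2 did not pass adjustment. GDF15, a secreted stress cytokine, went from 1085 to 5530 counts and from 1902 to 5608 (1.87 ± 0.31, adjusted p = 0.0156). RRM2B, a ribonucleotide reductase subunit, went from 375 to 1085 counts and from 749 to 2427 (1.53 ± 0.20, adjusted p = 0.00598). TP53INP1 also rose, as did ZMAT3, ACER2, PPM1D and TNFRSF10B, a TRAIL receptor, which were read from the list after their values were seen. Of the 6 targets named by rule, RRM2B and MDM2 were called without OV2008 (CDKN1A had an adjusted p of 0.158 there) and CDKN1A and BBC3 without C13 (MDM2 had 0.0983).

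Of the BCL2 family of cell death regulators, 3 of 17 tested members rose and 1 fell (against 1.78% and 1.38% of all genes). BBC3, the p53-induced killer protein PUMA, had 22 and 137 counts in OV2008 and 122 and 280 in C13 (1.73 ± 0.28, adjusted p = 0.0135). PMAIP1, the related protein NOXA, had 156 and 800 counts, then 645 and 1126 (1.47 ± 0.24, adjusted p = 0.0150), and BMF, which also promotes death, had 10 and 28, then 13 and 46 (adjusted p = 0.0249). BOK, a pore-forming member, fell, from 779 to 288 counts and from 1181 to 620 (-1.26 ± 0.24, adjusted p = 0.0243). For BBC3 and PMAIP1 the vehicle level of C13 was well above that of OV2008, and the fold was larger in OV2008. None of the 4 was called without OV2008 (0.161 to 0.577), and 3 were called without C13. The list medians were 0.00 and 0.02.

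Replication-dependent histone genes had the highest median of the pathway lists in both lines. Of 54 matched genes, 25 had enough counts to be tested, 7 rose (H2AC11, H2BC21, H4C8, H2AC6, H2BC5, H2BC11 and H3C6, against 1.78% of all genes) and 0 fell. Median log2 ratios were 1.70 in OV2008 and 1.17 in C13, and 0.96, 0.78, 0.00 and 0.41 in HeyA8, HeyA8-MDR, SKOV3 and SKOV3-TR. A gene passes the filter more easily if QC raised it, so these medians describe the genes that passed. H2AC11, a histone H2A gene, had 14 and 234 counts in OV2008 and 87 and 450 in C13 (3.02 ± 0.36, adjusted p = 0.00513). H2BC21 had 28 and 173 counts, then 104 and 489 (2.35 ± 0.29, adjusted p = 0.00513). H2BC11 had 29 and 231 counts, then 82 and 344 (2.43 ± 0.33, adjusted p = 0.00623), and H2BC5 had 34 and 215, then 160 and 548 (2.11 ± 0.28, adjusted p = 0.00598). In these 4 genes every QC library stood above the 2 vehicle libraries. Histone genes have near-identical copies and few polyadenylated transcripts, so the share of each copy is uncertain. Without OV2008 the 6 histone genes named by rule had adjusted p between 0.0761 and 0.191, and without C13 5 of them were called. Among 22 genes for histone mRNA processing, XRN1, a 5′ to 3′ exonuclease, rose (0.98 ± 0.20, adjusted p = 0.0306) and 0 fell.

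Promoter letters were counted over the 250 bases before to 50 bases after each listed start, on both strands, for the 13236 tested genes with a RefSeq promoter. A CCAAT box was in 42.1% of all promoters and in 22 of 25 tested histone genes (88.0%). The octamer ATTTGCAT was in 1.92% of all promoters, in 12 of the 189 matched genes changed alike upward (6.35%) and in 8 of 11 H2B genes (72.7%), the histone genes whose promoters are known for it. The genes changed alike upward included 9 replication-dependent histone genes, and no motif share was counted without them. TATAAA was in 9.10% of all promoters, 20.6% of genes changed alike upward and 3.28% of those changed alike downward. The AP-1 site, TGACTCA or its reverse TGAGTCA, was in 5.34% of all promoters and in 12.7% of genes changed alike upward, and the CArG box bound by serum response factor was in 1.53% and 3.70%. The CLEAR box core TCACGTGA, bound by lysosome regulators, was in 1.96% of all promoters, 1.59% of genes changed alike upward and 13.5% of lysosome genes. These are shares of letters and no evidence that a factor bound, and the octamer, TATAAA, AP-1 and CArG motifs were chosen after the data had been seen.

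Immediate early genes and NF-kB targets had higher medians in OV2008 than in C13, a gap that has no test of its own. Of 47 immediate early genes, 5 rose (FOS, BHLHE40, AREG, KLF6 and KLF10) and 1 fell (ID1), against 1.78% and 1.38% of all genes. The list medians were 0.82 in OV2008 and 0.29 in C13. Of the 46 members with at least 50 counts, 18 were at least 2-fold higher in OV2008 (39.1%) and 7 in C13 (15.2%). Over all genes with at least 50 counts the shares were 5.11% and 3.69%. FOS, a subunit of the AP-1 complex, had 92 and 547 counts in OV2008 and 121 and 386 in C13 (2.03 ± 0.35, adjusted p = 0.0161). AREG, a ligand of the EGF receptor, had 1206 and 4313 counts, then 3300 and 6175 (1.28 ± 0.26, adjusted p = 0.0276). ID1, an inhibitor of helix-loop-helix factors and a target of BMP signalling, fell from 11299 to 6127 and from 10504 to 5909 (-0.94 ± 0.19, adjusted p = 0.0271). For 36 NF-kB targets the medians were 0.68 in OV2008 and -0.07 in C13 (0.01 in C13 over the members with at least 50 counts). Of the 27 members with at least 50 counts, 11 were at least 2-fold higher in OV2008 (40.7%) and 0 in C13, against 5.11% and 3.69% of all genes counted. Of the 36, LIF, an IL-6 family cytokine, and BIRC2, an inhibitor of apoptosis, rose (against 1.78% of all genes). LIF had 632 and 2469 counts in OV2008 and 2297 and 3832 in C13 (1.26 ± 0.20, adjusted p = 0.0125). The following 3 genes were chosen after their values were seen. TNFAIP3, an NF-kB feedback inhibitor, had 788 and 3058 counts in OV2008 and 4170 and 4656 in C13. NFKB2, an NF-kB subunit, had 697 and 1800, then 3493 and 2493. CXCL8, the chemokine IL-8, had 114 and 629, then 1118 and 711. In all 3 the vehicle library of C13 was above the QC library of OV2008, also as CPM. The difference between the lines did not pass adjustment for any of them, with unadjusted p of 0.0436, 0.00616 and 0.0528. No immediate early or NF-kB gene named by rule was called without OV2008 (0.348 to 0.754).

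Targets of YAP and TGF-beta, which sense cell shape and matrix, had medians of 0.45 and 0.37, and 4 of 30 rose (LTBP2, SKIL, BHLHE40 and KLF10) while ID1 fell, against 1.78% and 1.38% of all genes. SKIL, a feedback inhibitor of TGF-beta signalling, had 503 and 1519 counts in OV2008 and 620 and 1152 in C13 (1.16 ± 0.22, adjusted p = 0.0223). Without OV2008 and without C13, LTBP2 alone of these was called.

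**Figure D2:**
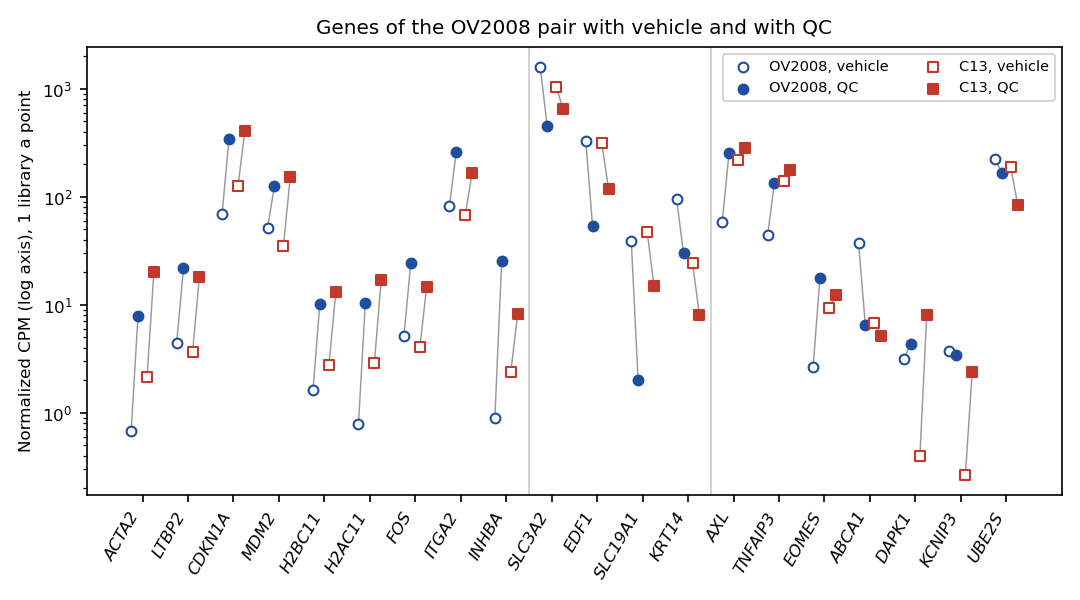
Normalized CPM on a log axis for named genes of the OV2008 pair, 1 library a point, with vehicle and QC for each line; there are no error bars because each point is 1 library. ACTA2 and CDKN1A are higher in both QC libraries than in either line's own vehicle library, while DAPK1 steps up mainly in C13, and the ABCA1 points of OV2008 drop to the level of C13.

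Calls in cholesterol, interferon and oxidative stress genes stand against 1.78% higher and 1.38% lower over all genes. Of 34 cholesterol synthesis and SREBP2 target genes, MSMO1, STARD4 and FADS2 rose and 0 fell, with medians of 0.24 and 0.37. MSMO1, an enzyme late in cholesterol synthesis, had 309 and 732 counts in OV2008 and 1406 and 3196 in C13 (1.14 ± 0.19, adjusted p = 0.0156), and none of the 3 was called without OV2008 or without C13. Of 40 interferon-stimulated genes, TRIM22 and OASL rose and BST2 fell. TRIM22, an antiviral ubiquitin ligase, had 46 and 182 counts, then 313 and 1415 (2.06 ± 0.24, adjusted p = 0.00513), and was called without OV2008 (0.0321) but not without C13 (0.0699). Of 32 NRF2 targets, the drug exporter ABCC3 and the reductase AKR1B10 rose, and PIR, GSR and GCLC, the last of these the catalytic subunit of glutathione synthesis, fell. ABCC3 had 371 and 1740 counts in OV2008 and 2470 and 3498 in C13, and PIR had 422 and 67, then 1459 and 588, both with the larger fold in OV2008. None of these 5 was called without OV2008 (0.391 to 0.706).

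Of 46 amino acid response genes 1 fell (against 1.38% of all genes) and 0 rose. SLC3A2, the heavy chain of the large amino acid transporter, fell from 28034 to 10227 counts in OV2008 and from 30924 to 17263 in C13 (-1.23 ± 0.28, adjusted p = 0.0386, and 0.691 without OV2008). Its light chain SLC7A5 had 99934 and 22420 counts, then 63495 and 27926, with an adjusted p of 0.0755. The list medians were -0.46 and -0.28. Of the 43 members with at least 50 counts, 10 were at least 2-fold lower in OV2008 and 1 in C13, against 4.53% and 1.11% of all genes counted. The fold was larger in OV2008 for both chains, a difference that did not pass adjustment.

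The calls in this paragraph stand against 1.78% higher and 1.38% lower over all genes, so 1 call among 79 or 56 genes lies near these shares. Of 79 cytoplasmic ribosomal protein genes only RPL36 was called (11372 and 7401 counts, then 18824 and 8875, -0.94 ± 0.16, adjusted p = 0.0170), and the medians were -0.18 and -0.43. Of the 79, 67 were below the median gene in both lines, and 0 were above it in C13. Of all 20403 genes, 6237 had a log2 ratio below 0 in both lines, and 11283 had one above 0 in OV2008 and 9619 in C13. In OV2008 the median itself differed from 0 only by rounding and was counted as above 0, so 11283 is no count of genes above the median gene. Over genes with at least 50 counts the median log2 ratio was 0.02 in OV2008 and -0.05 in C13. Of 102 ribosome assembly factors RRP7A, NHP2 and NOP10 fell, the last 2 being parts of the particle that makes pseudouridine in rRNA. Assembly factors were above the median gene in 55 of 102 cases in OV2008 and in 9 of 102 in C13, with medians of 0.04 and -0.36. RNA polymerase I machinery (24 genes), stress granule genes (25), snoRNA host genes (26), G2 and mitosis genes (40), heat shock genes (29), the ER unfolded protein response (28), LXR targets (15) and metallothioneins (17) had 0 calls in either direction by edgeR. RECQL4 and TIMELESS fell among 55 DNA replication genes (medians -0.24 and -0.42, with 43 of the 55 below the median gene in both lines), and 2 of 29 homologous recombination genes fell, XRCC3 among them. Autophagy genes ATG12 and RB1CC1 rose (2 of 40), the lysosomal protease CTSC fell (1 of 56 lysosome genes), the proton pump subunit ATP6V0E2 fell (1 of 19), and among 36 glycolysis and hypoxia genes HIF1A rose while PFKL and SLC2A3 fell. None of the genes named in this paragraph was called without OV2008, and PFKL alone was called without C13.

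Of the 13 genes that the study names and that were tested, CDKN1A alone was called, as higher (against 1.78% of all genes). CST6, a cysteine protease inhibitor, had 6 and 41 counts in OV2008 and 62 and 266 in C13, close to 5-fold in each line, at an adjusted p of 0.0834. PHGDH, the first enzyme of serine synthesis, had 2166 and 855 counts, then 2494 and 1264, at 0.0838. GNL3, which encodes nucleostemin, had 2585 and 2731 counts, then 5806 and 3167 (-0.48 ± 0.20, adjusted p = 0.224). POLR1A, the large subunit of RNA polymerase I, had 4276 and 5225 counts, then 4574 and 3293 (-0.18 ± 0.16, adjusted p = 0.630). G3BP1 had 5662 and 5367 counts, then 10287 and 6497 (-0.46 ± 0.23, adjusted p = 0.324). These counts are not scaled, so they do not give the direction of a change by themselves. Total counts were 18739626 and 22974846 in OV2008, and 29884628 and 23699105 in C13. The reference gene RPLP0 itself had a log2 ratio of -0.48 in each line (adjusted p = 0.175), so scaling to it raises every other value.

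**Figure D3:**
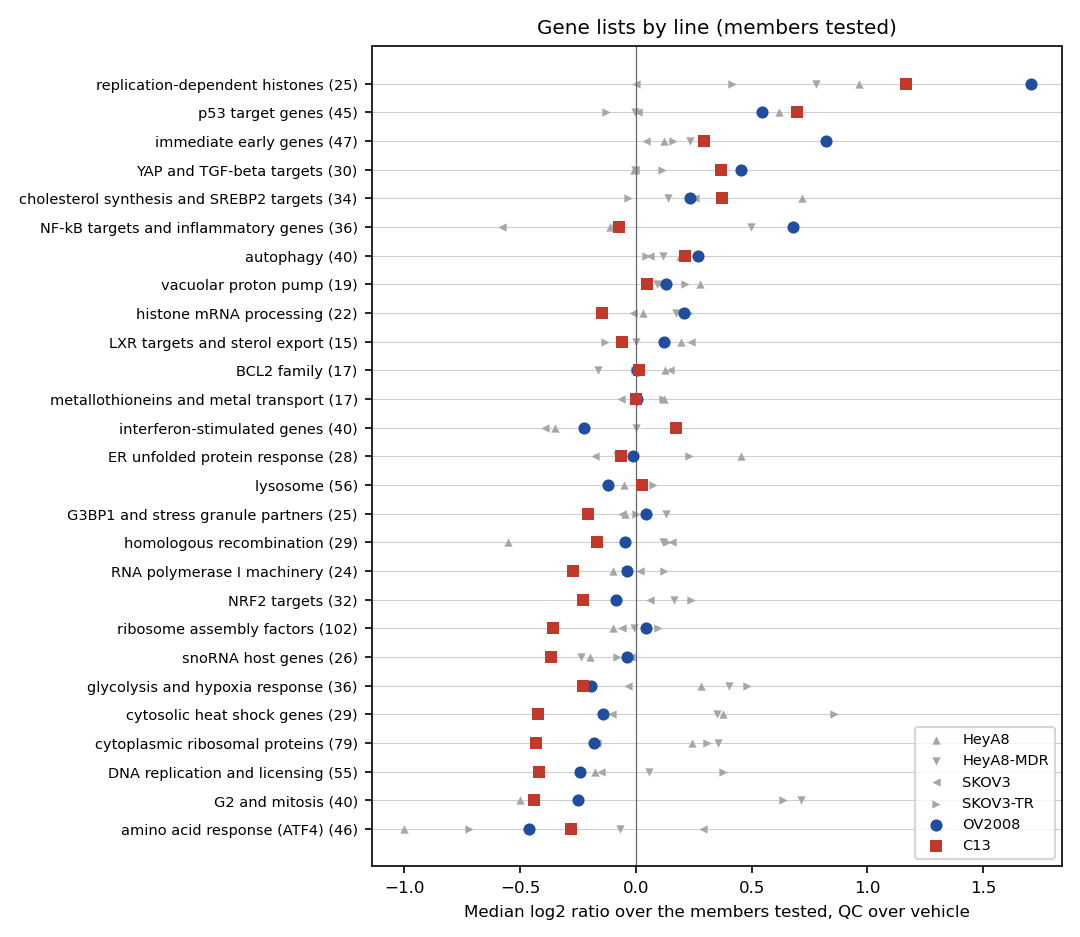
Median log2 ratio, QC over vehicle, of each gene list in each of the 6 lines, with the number of members tested in brackets and no error bars because each point is a median over genes of 1 line. Histone genes stand at 1.70 in OV2008 and 1.17 in C13, and the NF-kB list at 0.68 and -0.07.

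The genes that fell alike included enzymes and transporters with very different folds in the 2 lines. SLC19A1, the reduced folate carrier, had 698 and 46 counts in OV2008 and 1419 and 397 in C13, 19.3-fold and 3.16-fold lower (-2.79 ± 0.45, adjusted p = 0.0139). C7orf50 had 1391 and 206 counts, then 2787 and 840, 8.60-fold and 2.94-fold lower (-2.30 ± 0.30, adjusted p = 0.00598). ANTKMT, a lysine methyltransferase, had 258 and 31 counts, then 406 and 99 (-2.56 ± 0.37, adjusted p = 0.00812). In all 3, both QC libraries were below both vehicle libraries and the fold was larger in OV2008. The basal keratin KRT14 fell evenly, from 1681 to 677 and from 720 to 211 counts (-1.63 ± 0.24, adjusted p = 0.0150), and KRT6A fell too (adjusted p = 0.0392), the only calls among 11 squamous markers (against 1.38% lower over all genes). Without OV2008 none of these 5 was called (0.0780 to 0.706), and the keratins were not called without C13 either (0.108 and 0.127). CPLX1, a regulator of vesicle release, passed 2-fold in both lines (179 and 53 counts, then 292 and 54) with an adjusted p of 0.120. The median log2 ratio of the 87 genes was -1.81 in OV2008 and -1.20 in C13, and -0.35, -0.41, 0.06 and -0.05 in HeyA8, HeyA8-MDR, SKOV3 and SKOV3-TR.

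In windows of 20 neighbours, genes that fell lay next to each other more often in 3 places, a pattern looked for after the data had been seen. With the 11577 counted genes that have a place in the annotation set in chromosome order, the median log2 ratio over windows of 20 neighbours was below -0.60 in both lines in 62 of 11140 windows, and above 0.60 in both in 0. No window was that low in both lines of the HeyA8 pair or of the SKOV3 pair. The windows joined into 3 runs with 134 genes. The first run covered 66 genes from POLR3K to MLST8, the first 66 of 531 ordered genes on chromosome 16, with medians of -0.81 in OV2008 and -0.65 in C13. The second covered 34 genes from CCDC137 to FOXK2, positions 693 to 726 of 732 on chromosome 17, with medians of -0.55 and -0.60. The third covered 34 genes from LINC01451 to EXD3, positions 460 to 493 of 501 on chromosome 9, with medians of -0.82 and -0.71. Each of these 3 runs thus lay at or near one end of its chromosome's gene order. The number of runs depended on the window. Windows of 10 neighbours gave 11 runs, on chromosomes 1, 8, 9, 14, 16, 17, 20 and 22, and windows of 40 gave 3, on chromosomes 9, 16 and 17. Over all 134 genes the medians were between -0.07 and 0.12 in the other 4 lines. Since the runs were chosen by the same ratios, their calls are a description: 48 of the 134 genes fell (35.8%, against 1.38% of all genes and 6.64% of the 2379 genes highest in GC) and 2 rose, 1 of them BAIAP3. Within the runs lay PIGQ, of glycosylphosphatidylinositol anchor synthesis, with 703 and 51 counts in OV2008 and 1011 and 307 in C13, and EDF1, a transcriptional coactivator, with 5870 and 1205, then 9456 and 3151. EDF1 fell by 2.02 on the log2 scale (SE 0.25, adjusted p = 0.00598), 6.20-fold in OV2008 and 2.66-fold in C13.

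**Figure D4:**
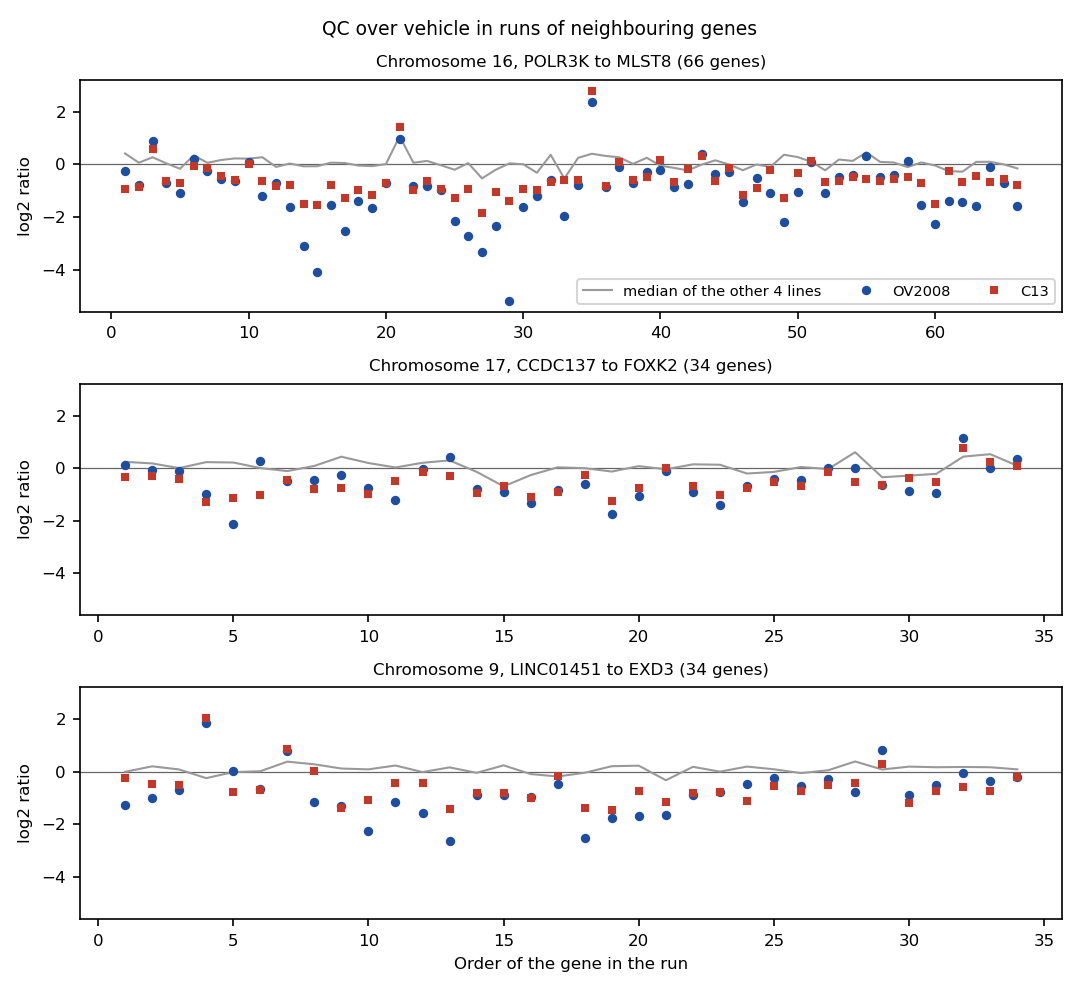
Log2 ratio of CPM, QC over vehicle, for each gene of the 3 runs in chromosome order, with 1 point a gene for OV2008 and for C13 and a grey line for the median of the other 4 lines; the horizontal axis is the order of the gene within the run. Most genes lie below 0 in OV2008 and in C13, with run medians between -0.82 and -0.55, while the grey line stays near 0.

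GC content and gene span moved with the response and are given beside it. In the 20% of genes with the lowest GC content the median log2 ratio was 0.20 in OV2008 and 0.09 in C13, and in the 20% with the highest it was -0.16 and -0.20. This trend was not particular to the pair. Between the same classes the median went from 0.36 to -0.11 in HeyA8-MDR and from 0.17 to -0.10 in SKOV3-TR. It went from -0.06 to 0.04 in HeyA8 and from 0.03 to 0.04 in SKOV3. Genes that fell made up 0.336% of the lowest class and 6.64% of the highest. By gene span, the median went from -0.09 and -0.19 in the shortest 20% of genes to 0.16 and 0.13 in the longest, and genes that rose made up 1.98% of the shortest and 4.75% of the longest. With a correction for GC content and transcript length, 681 genes were called, 508 of them shared with the 644, and the 134 neighbouring genes kept a median shared log2 fold change of -0.53 (against -0.70) with 32 calls in place of 48.

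**Figure D5:**
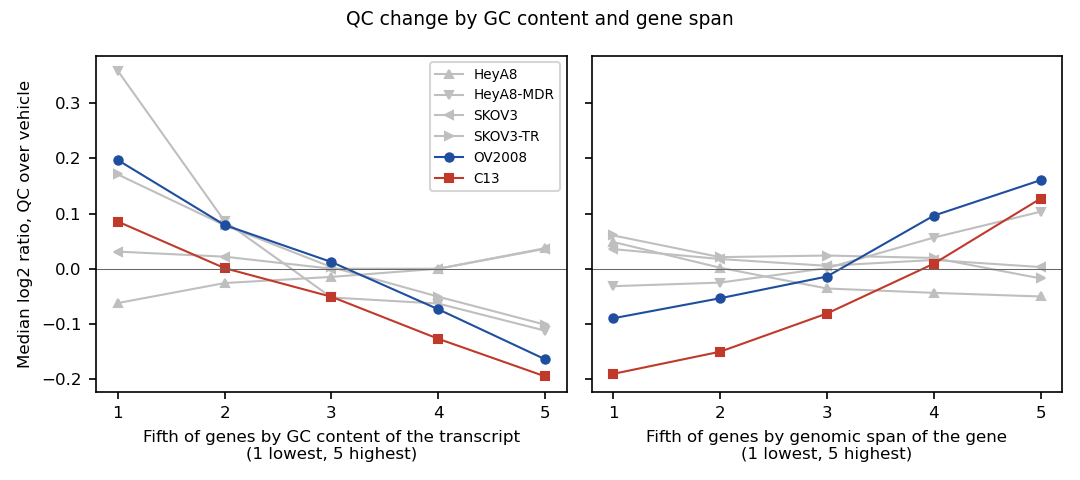
Median log2 ratio, QC over vehicle, by classes of 20% of the genes in GC content and in gene span, for each line, with no error bars because each point is a median over genes of 1 line. In OV2008 it goes from 0.20 to -0.16 with rising GC content and from -0.09 to 0.16 with rising span.

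To ask which genes QC changed differently in C13 and in OV2008, the difference between the lines was tested with edgeR, with the lone libraries assumed to vary like those of the other pairs. No gene passed at an adjusted p under 0.05 (0 of 20403, smallest adjusted p 0.778), 534 had an unadjusted p under 0.05 (2.62%) and DESeq2 called 7. Without HeyA8 28 genes passed and without HeyA8-MDR 31 did. The classes of genes changed in 1 line alone therefore describe these libraries and are not shown to differ between the lines.

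In C13 alone the largest step was DAPK1, a calmodulin-dependent kinase linked to cell death, with 12 and 213 counts in C13 (20.1-fold, 11.2 to 39.4) and 56 and 99 in OV2008 (1.39-fold, 0.991 to 1.96). It had the smallest p of the difference in favour of C13, 3.83 ± 0.62 on the log2 scale (unadjusted p = 0.000103, adjusted p = 0.778). KCNIP3, a calcium-binding channel partner, had 8 and 63 counts in C13 and 66 and 78 in OV2008, ACP3, an acid phosphatase, 9 and 77 in C13 and 36 and 61 in OV2008, and MN1, a transcriptional coregulator, 9 and 58 in C13 and 34 and 57 in OV2008. In these 4 genes the vehicle library of C13 was the lowest of the 4, and QC brought C13 near the level of OV2008 in KCNIP3, ACP3 and MN1 and above it in DAPK1. Downward in C13 alone were UBE2S, a ubiquitin-conjugating enzyme of mitotic exit, with 5573 and 2233 counts in C13 and 3957 and 3775 in OV2008, and PPAN, a ribosome assembly factor, with 406 and 163 in C13 and 205 and 274 in OV2008. All 14 genes of that class stayed under 3-fold.

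In OV2008 alone the reverse arrangement was frequent among the leading genes. SPTSSB, a subunit of serine palmitoyltransferase, had 6 and 76 counts in OV2008 (9.95-fold, 4.37 to 28.0) and 236 and 221 in C13. EOMES, a T-box transcription factor, had 47 and 404 counts in OV2008 (6.75-fold, 4.98 to 9.34) and 278 and 325 in C13, and STX11, a membrane fusion protein, had 8 and 77, then 198 and 155. AXL, a receptor tyrosine kinase, had 1031 and 5713 counts in OV2008 (4.35-fold, 4.07 to 4.66) and 6498 and 7475 in C13 (1.30-fold, 1.26 to 1.34), and ADAM12, a metalloprotease, had 40 and 237, then 408 and 376. For SPTSSB, STX11, AXL and ADAM12 the vehicle library of C13 was above or close to the QC library of OV2008 in CPM. Downward in OV2008 alone, EPPK1, the cytolinker epiplakin, had 3287 and 638 counts in OV2008 and 2913 and 2491 in C13. ABCA1, the cholesterol exporter, had 661 and 146 counts in OV2008 (5.76-fold lower) and 204 and 137 in C13, with all 3 lower libraries at similar CPM. For the opposite pair, CAVIN2, of caveolae, had 93 and 55 counts in OV2008 and 117 and 211 in C13, and RPLP0P9 had 58 and 8, then 17 and 68. RPLP0P9 is a pseudogene of the abundant RPLP0, so its reads are uncertain.

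The QC effect of the OV2008 pair was last tested against the mean effect of the HeyA8 and SKOV3 pairs. By edgeR 51 of 20403 genes differed (0.250%), 32 of them higher in the pair (0.157%) and 19 lower (0.0931%). LTBP2 was higher by 2.36 on the log2 scale (adjusted p = 0.0104), with log2 ratios between -0.32 and 0.31 in the other 4 lines. ACTA2 was higher by 2.66, ITGA2 by 1.74 and NABP1, which binds single-stranded DNA, by 1.63, each with an adjusted p of 0.0192. In ITGA2 and NABP1 all 4 other lines were below 0, between -0.05 and -0.68. BBC3 (2.05), LIF (1.49) and TRIM22 (2.19) also differed. Among the genes lower in the pair were EDF1 (-2.17) and RABL6 (-1.43), both on chromosome 9, and C7orf50 (-2.29). EDF1 had log2 ratios of 0.04 to 0.26 in the other 4 lines against -2.63 and -1.41 in the pair. Without HeyA8 671 genes differed and without HeyA8-MDR 787 did, while 2 did without OV2008, 9 without SKOV3 and 11 without SKOV3-TR. Of the genes named in this paragraph none was called without OV2008, where LTBP2 had an adjusted p of 0.0873. LTBP2, ACTA2, ITGA2 and NABP1 were called without C13, without SKOV3 and without SKOV3-TR. EDF1 and RABL6 were not called without SKOV3 (0.0729 and 0.0671) or without SKOV3-TR (0.0755 and 0.0585), and RABL6 was not called without C13 (0.103). BBC3, LIF and C7orf50 were not called without SKOV3 (0.0677, 0.0965 and 0.0896) or without SKOV3-TR (0.119, 0.117 and 0.122). TRIM22 was not called without SKOV3 (0.0677) or without C13 (0.124).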

How the data were processed

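RNA-seq counts of 12 libraries from 6 cell lines were used, 1 library for each line and treatment. The deposited values are raw read counts per gene, which the authors made with HTSeq and did not normalize. The authors' methods name TopHat and hg19, whereas the submitters' processing notes name STAR 2.7.3a, HTSeq 0.6.1p1 and GRCh38.p13. The aligner and build are therefore uncertain, no gene coordinates of the counts are given, and the annotation and strand setting are not given in the sources used here, so reads of overlapping and antisense genes cannot be told apart. Of 60669 Ensembl IDs, 58620 were paired with a symbol through a RefSeq gene table, and these held 99.9% of the counts. The 2049 other IDs stayed in the tests. RefSeq promoters are on GRCh38.p14, matched by symbol, and those of chromosome 8 were not used here.

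Genes were filtered with edgeR's filterByExpr (minimum count 10, minimum total 15) and scaled by trimmed means (TMM) in edgeR 4.0.16 under R 4.3.3 with limma 3.58.1. The quasi-likelihood fit held a term for each line and a QC effect for each pair (3 residual degrees of freedom). The difference between C13 and OV2008 came from a fit with separate QC effects for these lines (2 residual degrees of freedom). Tests were two-sided with Benjamini-Hochberg adjustment over 20403 genes. Values by line are log2 ratios of CPM with a prior count of 2, and fold intervals are exact 95% intervals of counting error. The replicate block is the cell line. Libraries of the same line paired up: their deviations from the group means had a correlation across genes of 0.79 in the OV2008 pair, 0.69 in the HeyA8 pair and 0.90 in the SKOV3 pair. Alternatives included DESeq2 1.42.0, other scalings, filters and thresholds, and leaving out each line. The methods were tested on simulated data. Plots used matplotlib 3.10.9.

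The lines, gene lists and tests were chosen with earlier results of these data known. The 34 lists, 28 of processes or of genes the study names and 6 of markers, were written from general knowledge, and 1096 of 1106 entries were matched. Genes named in the text are, by rule, the leading genes changed alike (10 a direction), changed in 1 line (5 a direction) or opposite (5), the 4 members of each list with the smallest p and up to 6 called members, and the 5 smallest p in each direction of both difference tests. Exceptions are said to be chosen after their values were seen. A few genes covered by this rule are left out of the text, though every test and adjustment included them.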

Additional observations from a re-analysis of the deposited data

Results flagged for a closer look

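The QC effect of the OV2008 pair differed from the mean effect of the HeyA8 and SKOV3 pairs for 51 genes, a difference tested as a contrast with edgeR's quasi-likelihood test. The 5 genes with the smallest p in each direction are listed with this difference on the log2 scale. Higher in the pair were PURPL (6.18), which had 0 and 3 counts in OV2008 so that the value is no bound, LTBP2 (2.36), NABP1 (1.63), ITGA2 (1.74) and ACTA2 (2.66). Lower in the pair were SAPCD2 (-1.83), RABL6 (-1.43), EDF1 (-2.17), DUS1L (-1.33) and CPA4 (-2.75). SAPCD2, which acts in spindle orientation, had 1755 and 663 counts in OV2008 and 3054 and 993 in C13, and log2 ratios between -0.48 and 0.98 in the other lines. CPA4, a carboxypeptidase, had 1548 and 782 counts in OV2008 and 1345 and 1027 in C13, and log2 ratios between 0.00 and 2.71 in the other lines. Its shared change in the pair was not called by edgeR (adjusted p = 0.170), and its difference from the other pairs (0.0436) was lost without SKOV3 (0.0628) and without SKOV3-TR (1). Without SKOV3 SAPCD2 (0.0729), RABL6 (0.0671), EDF1 (0.0729) and DUS1L (0.0946) were lost too, and without OV2008 PURPL alone of these 10 was called (0.0120), while PURPL was lost without C13 (0.609). Without C13 SAPCD2 (0.0501), RABL6 (0.103) and DUS1L (0.0767) were lost, and without SKOV3-TR RABL6 (0.0585), EDF1 (0.0755) and DUS1L (0.119).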

How the results depend on the processing

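No called gene named by rule turned its direction under the alternatives run, but list medians near 0 did: metallothioneins and the unfolded protein response as given below, and interferon-stimulated genes from -0.03 to 0.01 by library size. Against 644 genes with a shared QC effect, DESeq2 called 1452, no filter on low counts 1510, a fit to the 4 libraries of the pair alone 3165 and an unadjusted p under 0.05 3642, and leaving out a line gave 22 to 2025. Without the replicate block 0 genes were called for the shared effect and 0 for the pair against the other pairs. For C13 minus OV2008, with 0 calls, DESeq2 called 7, no filter 23 and an unadjusted p 534, and leaving out a line gave 0 to 31. For the pair against the other pairs, with 51 calls, library size scaling called 80 (72 higher), GC and length correction 78, at least 10 counts in every library 94, no filter 730, DESeq2 777 and an unadjusted p 2859, and leaving out a line gave 2 to 787. The 7 classes are given in the order alike up, alike down, OV2008 alone up, OV2008 alone down, C13 alone up, C13 alone down and opposite. They held 782, 621, 693, 684, 368, 405 and 25 genes at 1.5-fold, 79, 8, 35, 31, 14, 0 and 1 at 3-fold, 767, 228, 680, 761, 531, 247 and 208 with no minimum count, and 114, 57, 79, 80, 20, 9 and 0 with a minimum of 200. With the other line only under 2-fold the genes of 1 line were 343, 452, 171 and 45. Scaled to RPLP0, genes changed alike were 950 up and 13 down, and in C13 alone 147 up and 1 down. Scaled by library size, genes changed alike downward were 50, and in C13 alone 112 up and 4 down, and a prior count of 5 left 1 opposite gene. The mean of the 2 line medians moved by more than the spread of the lines for 7 lists. Over members with at least 50 counts it was 1.96 for histones (1.44 over all tested), 0.16 for the proton pump (0.09), -0.0091 for metallothioneins (0.0015) and 0.0024 for the BCL2 family (0.01). Scaled to RPLP0 and relative to the median gene it was 0.0050 for the unfolded protein response (-0.04), -0.0020 for metallothioneins, 0.29 for autophagy (0.24), -0.16 for glycolysis (-0.21) and 0.0387 for the BCL2 family. By library size these were -0.0141 for metallothioneins, 0.28 for autophagy, -0.17 for glycolysis and 0.0419 for the BCL2 family. Windows of 10 neighbours gave 11 runs with 212 genes in place of 3 runs with 134, and 109 of the genes were shared. Windows of 40 gave 3 runs with 166 genes, 131 of them shared. The cause of these shifts was not tested. With 1 library for each line and treatment, a difference between OV2008 and C13 can rest on 1 library, and genes near 0 counts in OV2008 vehicle give folds with wide intervals.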

Other observations

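Some genes outside the lists and outside the naming rule rose alike, and they were picked with their values in view. FBXO32, a ubiquitin ligase of muscle wasting and a FOXO target, had 36 and 448 counts in OV2008 and 477 and 1735 in C13, a shared log2 fold change of 2.54 ± 0.29 (edgeR, adjusted p = 0.00513). RICTOR, a scaffold of the second mTOR complex, had 960 and 3320 counts, then 1951 and 5051 (log2 ratios of 1.44 and 1.55, adjusted p = 0.00513). F2R, the thrombin receptor, had 633 and 2567 counts, then 765 and 1865 (1.57 ± 0.18, adjusted p = 0.00513). MIR34AHG, the host transcript of the p53-induced miR-34a, had 47 and 275 counts, then 232 and 708 (1.97 ± 0.27, adjusted p = 0.00615). In all 4 the QC library of each line was above its vehicle library. ELOVL2, a fatty acid elongase, had 0 and 22 counts in OV2008 and 2 and 48 in C13, a ratio of 27.1 (7.11 to 230) in C13, and SMOC1, a matrix protein, had 0 and 12, then 4 and 67.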
